A study of Ambystoma mexicanum with 12 samples.

Results

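Molecular chaperones bind unfolded or partly folded proteins and help them to reach their native shape. HSP70 proteins clamp onto short exposed stretches of a client with the help of J-domain proteins (DNAJA, DNAJB and DNAJC), which trigger ATP hydrolysis, and HSP90 proteins act later on a more restricted set of clients such as kinases and steroid receptors. The chaperonins enclose a client in a barrel: TRiC, also called CCT, is built from TCP1 and the other CCT subunits and folds newly made actin and tubulin in the cytosol, and HSPD1 with its lid HSPE1 folds proteins in the mitochondrial matrix. Some of these genes are expressed in every cell, whereas others, among them HSPA1A and DNAJB1, are switched on by heat shock factor 1 when misfolded proteins accumulate.

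In the axolotl spinal cord data described here, 79 of the 15091 gene symbols in the expression table were chaperones or chaperonins by name. A symbol was taken when it began with HSPA, HSPB, HSPD, HSPE, HSPH or HSP90, was a numbered DNAJA, DNAJB or DNAJC gene, was one of CCT2 to CCT8, or was TCP1. Each symbol was matched by its name alone, but the members were chosen with earlier results of these data known. The symbols fell into 15 of the HSP70 family (with HSPH1), 3 of the HSP90 family, 2 of the mitochondrial chaperonin, 9 of TRiC, 5 small heat shock proteins, 4 DNAJA, 12 DNAJB and 25 DNAJC genes. The pattern also took in 2 binding partners, HSPBP1 and HSPBAP1, and 2 symbols of readthrough transcripts, HSPB2-C11orf52 and HSPE1-MOB4. Of all 79 symbols, 71 had a mean of at least 1 TPM over the 12 libraries and were tested.

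Total RNA of axolotl (Ambystoma mexicanum) spinal cord was sequenced in 4 groups of 3 libraries, each labelled as a pool of tissue from 10 animals. The study's methods give 6 pooled cords per sample. The groups were uninjured cord (libraries 1, 5 and 1 without a number), cord 4 days post injury with a control inhibitor (4dpi control, libraries 1, 5 and 6), uninjured cord injected with an inhibitor of the microRNA miR-200 (uninjured inhibitor, libraries 5, 6 and 7), and cord 4 days post injury with that inhibitor (4dpi inhibitor, libraries 5, 6 and 7). Inhibitors were injected into the central canal and electroporated, and the injury removed a piece of cord. The labels say miR-200, whereas the study's methods name a miR-200a inhibitor. Its sequencing methods do not list the uninjured inhibitor group, so the time from electroporation to harvest is not known there. In their titles uninjured libraries 1 and 5 carry a control tag, as 4dpi control libraries do, and the unnumbered one does not. The labels do not state whether that tag means an injection. In comparisons with uninjured libraries, injury or inhibitor therefore cannot be told apart from injection and electroporation. Each pool is a separate sample in the labels, p-values measure the spread between these pools, and in bulk tissue fewer cells of a type and less RNA per cell cannot be told apart.

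Levels are TPM, the relative abundance of transcripts corrected for their length, which sum to the same total in each library. Sequencing depth is unknown, so no counting error is given. Differences are on the log2(TPM + 0.1) scale, and a change is an adjusted p under 0.05 in limma with Benjamini-Hochberg adjustment over all 13824 genes tested. TPM are shares of a library. The median log2 difference of all genes was far from 0 wherever the inhibitor groups entered, for a cause that was not tested. Against uninjured libraries it was -1.10 for uninjured inhibitor, -0.81 for 4dpi inhibitor and -0.08 for 4dpi control, and for 4dpi inhibitor it was -0.69 against 4dpi control and 0.28 against uninjured inhibitor libraries. Many results are therefore given also after median-of-ratios scaling, called scaled below. Under it these medians were -0.17, -0.14, -0.05, -0.07 and 0.01 in the same order. Values not called scaled are on TPM, and their scaled counterpart is not given in every case. The libraries differed in cell markers as well. Summed TPM of 18 neuronal markers ran from 2844 to 16510 in uninjured, 3033 to 6618 in 4dpi control, 2657 to 3708 in uninjured inhibitor and 1531 to 1790 in 4dpi inhibitor libraries, and no neuronal marker was at 0 in the median library of any group. Summed TPM of 22 skeletal muscle markers ran from 15793 to 59602 in uninjured and from 8849 to 16098 in uninjured inhibitor libraries, so muscle transcripts were in all of the dissected pieces. Immune cell markers were instead lowest in uninjured libraries. Summed TPM of 8 granulocyte markers was 88.5 to 110 in uninjured and 873 to 1022 in 4dpi control libraries. It was 654 to 768 in uninjured inhibitor and 1797 to 2158 in 4dpi inhibitor libraries. Summed TPM of 16 microglia and macrophage markers was 667 to 826 in uninjured libraries. It was 1120 to 1298 in uninjured inhibitor and 1965 to 2692 in 4dpi inhibitor libraries. The part of cell composition in the results below was not tested.

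All members together held between 0.939% and 1.21% of the TPM of a library. The most abundant was CCT5, with a mean of 1211 TPM over the 12 libraries, and TRiC was the most abundant family, with 0.401% to 0.736% of TPM in its 8 tested subunits. In the other families the highest means belonged to HSPE1, the mitochondrial lid, with 603 TPM, HSP90AB1, the constitutive cytosolic HSP90, with 533 TPM, HSPA4, a nucleotide exchange factor of the HSP110 type, with 315 TPM, and DNAJA2, a J-domain partner of constitutive HSP70, with 198 TPM. DNAJC8, a J-domain protein found with the splicing machinery, had 167 TPM, DNAJB11, a J-domain partner of HSPA5 in the endoplasmic reticulum (ER), 155 TPM, and HSPB8, a small heat shock protein, 108 TPM. HSPBP1, a nucleotide exchange factor of HSP70, led the binding partners with 22.2 TPM.

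Both inhibitor groups differed from uninjured cord in many chaperones, in both directions, while no chaperone passed the test in 4dpi control cord. Most falls on TPM did not hold after scaling, whereas every rise did. This contrast is built into the scaling. It divides each library by its own factor, 1.12 to 1.80 in uninjured libraries. The factors were 0.659 to 0.786 in uninjured inhibitor and 0.786 to 0.946 in 4dpi inhibitor libraries. Differences of the inhibitor groups from uninjured therefore moved upward by a nearly constant amount, and rises that held are no separate support. In uninjured inhibitor against uninjured libraries, 11 members rose and 23 fell, against 7.39% and 51.1% of all genes tested. After scaling, 25 members rose and 6 fell, against 19.4% and 17.8% of all genes. The 11 that rose did so on both scales, and of the 23 that fell 6 also fell after scaling. In 4dpi inhibitor against uninjured libraries, 12 members rose and 17 fell, against 9.39% and 31.2% of all genes, and 21 rose and 4 fell after scaling, against 16.6% and 12% of all genes. All 12 rises and 4 of the falls were shared by both scales. The median log2 difference of the members was -0.41 against -1.10 over all genes in the former comparison and -0.37 against -0.81 in the latter. The libraries of the compared groups did not overlap in 14 higher and 26 lower members (8.93% and 50.8% of all genes) for uninjured inhibitor, and in 18 higher and 20 lower members (12.6% and 41.8% of all genes) for 4dpi inhibitor. Both comparisons share the uninjured libraries. Over all 6 comparisons run, 40 members passed in at least 1 and 31 in none, or 35 and 36 after scaling.

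**Figure D1:**
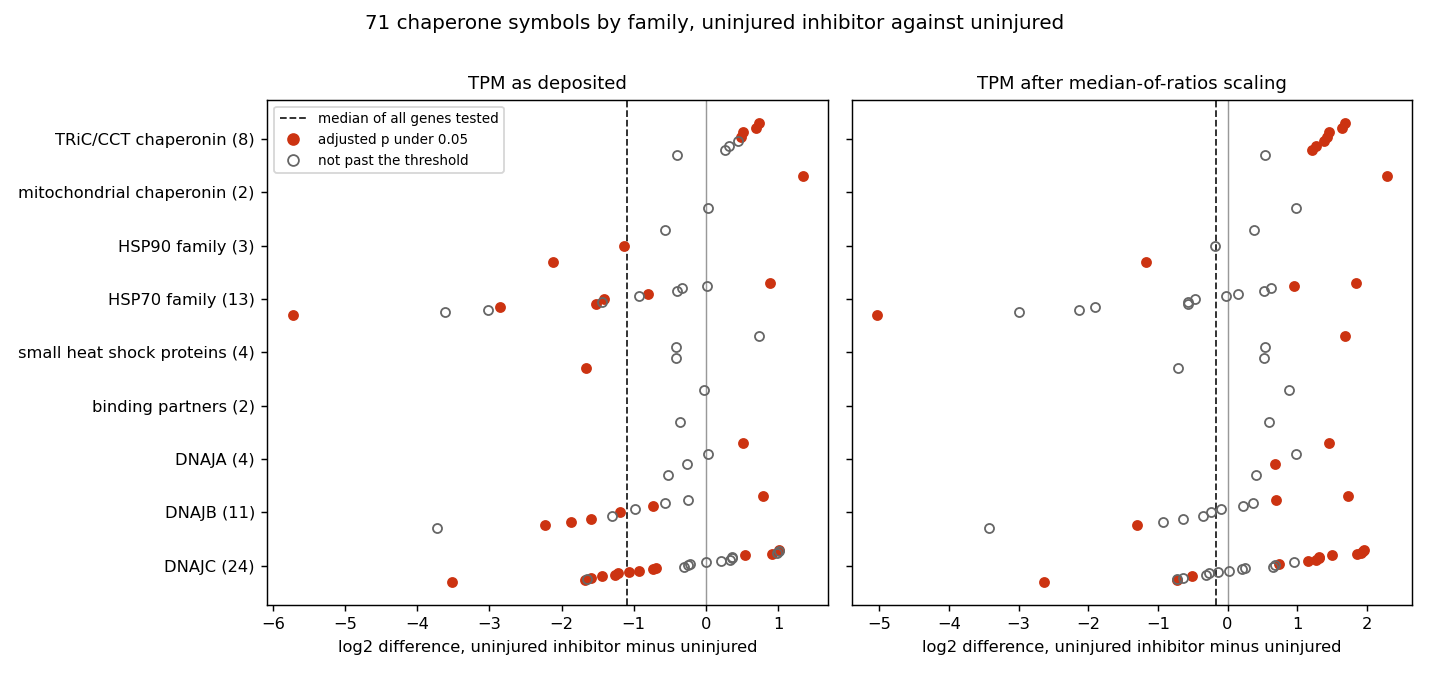
Log2 differences of the 71 tested chaperone symbols between uninjured inhibitor and uninjured libraries (x axis) by family (y axis, number of symbols in parentheses), from TPM as deposited (left) and after median-of-ratios scaling (right). Filled points passed an adjusted p under 0.05, open points did not, and the dashed line is the median of all genes tested, -1.10 on the left and -0.17 on the right. The TRiC subunits lie to the right of that line in both panels, and HSP70 and J-domain genes lie on both sides of it.

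Of the 8 tested TRiC subunits, 4 rose in each inhibitor group against uninjured cord on TPM (CCT2, CCT3, CCT4 and CCT6A), and none passed in 4dpi control. The 4dpi control libraries were nevertheless as high on average: the 8 subunits held 0.642% ± 0.115 of TPM (SD, n = 3) in 4dpi control, 0.637% ± 0.0225 in uninjured inhibitor, 0.695% ± 0.0339 in 4dpi inhibitor and 0.470% ± 0.0667 in uninjured libraries. The median log2 difference of the subunits from uninjured was 0.46 in 4dpi control (scaled 0.50) as in uninjured inhibitor libraries (scaled 1.41), and all 8 were above 0 in 4dpi control. CCT2 had 675, 550 and 699 TPM in uninjured libraries 1, unnumbered and 5, 1043, 1067 and 1082 TPM in uninjured inhibitor libraries 5, 6 and 7, and 1321, 1176 and 1177 TPM in 4dpi inhibitor libraries 5, 6 and 7. No library of either inhibitor group came near the uninjured range. The log2 difference of CCT2 was 0.74 ± 0.18 (SE, adjusted p = 0.00575, limma) for uninjured inhibitor and 0.94 ± 0.18 (adjusted p = 0.00348) for 4dpi inhibitor against uninjured, and after scaling 1.69 and 1.62. CCT4 had 507, 465 and 610 TPM in uninjured, 808, 916 and 824 TPM in uninjured inhibitor and 1121, 1011 and 1028 TPM in 4dpi inhibitor libraries, so that the 3 groups did not overlap. Its log2 difference was 0.69 ± 0.19 (adjusted p = 0.0104) for uninjured inhibitor and 1.01 ± 0.19 (adjusted p = 0.00355) for 4dpi inhibitor against uninjured. CCT2 and CCT4 passed in all 12 fits that each left out a library, on both scales.

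CCT3 and CCT6A also rose in both comparisons, by smaller amounts that did not hold in every fit. CCT6A went from 663 to 940 TPM in uninjured libraries to 1047 to 1234 TPM in uninjured inhibitor and 1169 to 1285 TPM in 4dpi inhibitor libraries. Its log2 difference was 0.51 ± 0.19 (adjusted p = 0.039) for uninjured inhibitor, where 4 of 12 fits without a library passed and the adjusted p reached 0.117 without the unnumbered uninjured library, and 0.65 ± 0.19 (adjusted p = 0.0206) for 4dpi inhibitor against uninjured. CCT3 went from 456 to 636 TPM in uninjured to 658 to 794 TPM in uninjured inhibitor and 787 to 819 TPM in 4dpi inhibitor libraries, with log2 differences of 0.49 ± 0.19 (adjusted p = 0.0459) and 0.63 ± 0.19 (adjusted p = 0.0221). In 4dpi inhibitor against uninjured libraries, CCT6A passed in 9 and CCT3 in 7 of 12 fits without a library. In the comparison of uninjured cords, CCT3 passed in 3 of 12 fits without a library, with an adjusted p of 0.137 without uninjured inhibitor library 7. After scaling, both genes passed all 12 such fits in that comparison.

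CCT5, CCT8 and TCP1 showed the same direction without passing on TPM. CCT5 had 805 to 1115 TPM in uninjured and 1248 to 1353 TPM in uninjured inhibitor libraries (log2 difference 0.44, adjusted p = 0.0529). CCT8 had 350 to 434 and 479 to 510 TPM in the same groups (0.32, adjusted p = 0.117), and TCP1 314 to 445 and 432 to 535 TPM (0.27, adjusted p = 0.258), with overlapping libraries. All of them passed after scaling, when 7 of the 8 tested subunits rose in each inhibitor group against uninjured cord and none fell. On TPM it was 4 of 8. The upward shift that scaling gave to differences from uninjured applies to these subunits too. Of all genes, 7.39% rose in uninjured inhibitor and 9.39% in 4dpi inhibitor libraries (19.4% and 16.6% after scaling). The median log2 difference of the subunits was 0.46 against -1.10 over all genes for uninjured inhibitor (scaled 1.41 against -0.17) and 0.55 against -0.81 for 4dpi inhibitor (scaled 1.23 against -0.14).

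CCT7 stood apart from its partner subunits. It had 498, 409 and 499 TPM in uninjured, 510, 552 and 571 TPM in 4dpi control, 351, 304 and 410 TPM in uninjured inhibitor and 264, 508 and 255 TPM in 4dpi inhibitor libraries. Of the 6 libraries with inhibitor, 4dpi inhibitor library 6 and uninjured inhibitor library 7 reached the uninjured range, the latter at its lower end. As a share of the summed TPM of the 8 subunits, CCT7 made up 9.34% to 10.5% in uninjured, 7.51% to 9.93% in 4dpi control, 4.72% to 6.26% in uninjured inhibitor and 3.78% to 6.99% in 4dpi inhibitor libraries, so the inhibitor libraries lay below all others. CCT2, in contrast, made up 13.1% to 14.2% of the sum in uninjured and 16.2% to 18.9% in the inhibitor libraries. These shares were looked at because of the TPM values and were not tested. CCT7 itself passed in none of the comparisons on either scale.

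**Figure D2:**
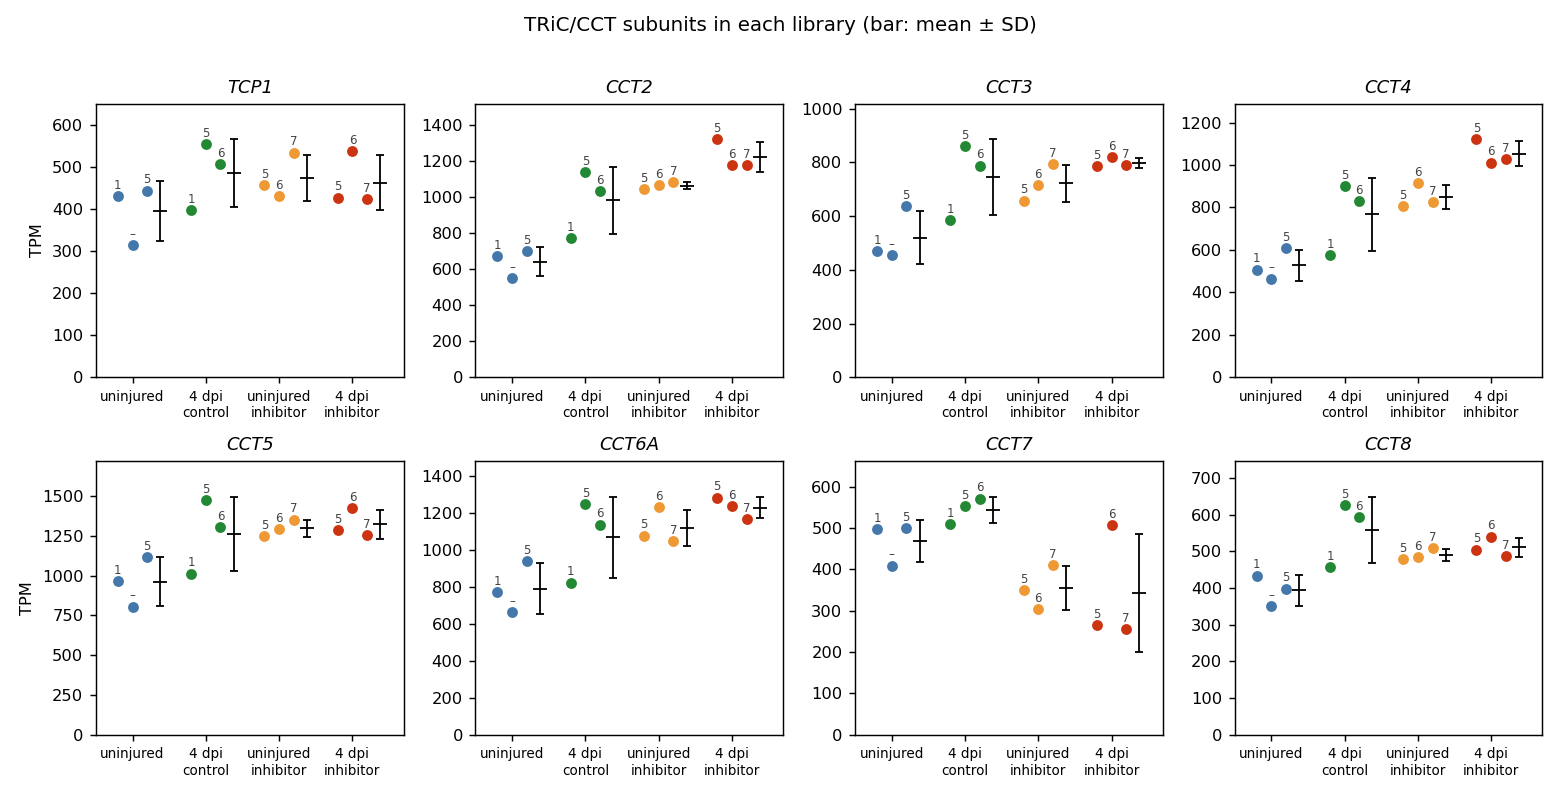
TPM (y axis, from 0) of the 8 tested TRiC subunits in each library of the 4 groups (x axis), with library numbers above the points, a dash for the uninjured library without a number, and the mean ± SD of 3 libraries beside each group. CCT2 and CCT4 are higher in all 6 inhibitor libraries than in any uninjured library, 4dpi control library 1 lies below libraries 5 and 6 of its group for every subunit, and CCT7 is lowest in 4dpi inhibitor libraries 5 and 7.

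The mitochondrial chaperonin split into its components. HSPE1, the lid, had 227, 426 and 280 TPM in uninjured, 323, 556 and 563 TPM in 4dpi control, 766, 796 and 721 TPM in uninjured inhibitor and 1001, 740 and 841 TPM in 4dpi inhibitor libraries. The inhibitor libraries were all above both other groups. Its log2 difference was 1.34 ± 0.26 (adjusted p = 0.00269) for uninjured inhibitor and 1.51 ± 0.26 (adjusted p = 0.00256) for 4dpi inhibitor against uninjured, 2.29 and 2.19 after scaling, and it passed all 12 fits without a library on both scales in both. HSPD1, the barrel, had 99.7, 176 and 85.3 TPM in uninjured and 99.6, 103 and 157 TPM in uninjured inhibitor libraries, which overlap, and passed in no comparison. The ratio of HSPE1 to HSPD1 was 2.27 to 3.28 in the 6 uninjured and 4dpi control libraries and 4.37 to 9.85 in the 6 inhibitor libraries. As short and long transcripts, the pair can be compared within a library per length only, as TPM does.

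Other mitochondrial chaperones also went separate ways. HSPA9, the matrix HSP70 of protein import, had 73.4, 135 and 39.5 TPM in uninjured and 21.0, 29.6 and 26.6 TPM in uninjured inhibitor libraries, a log2 difference of -1.52 ± 0.36 (adjusted p = 0.00517) that was -0.57 after scaling (adjusted p = 0.26). DNAJC19, a J-domain protein of the import motor, had 21.4, 20.6 and 19.5 TPM in uninjured against 44.4, 37.3 and 43.1 TPM in uninjured inhibitor libraries, with no overlap and a narrow spread in each group. It rose by 1.02 ± 0.23 (adjusted p = 0.00459), and by 1.96 after scaling. DNAJC15, its close relative, had 5.48, 37.1 and 15.8 TPM in uninjured and 22.9, 56.0 and 48.8 TPM in 4dpi control libraries. It had 34.4, 27.2 and 28.5 TPM in uninjured inhibitor and 52.3, 58.1 and 50.3 TPM in 4dpi inhibitor libraries. The log2 difference of 4dpi inhibitor from uninjured libraries was 1.85 ± 0.54 (adjusted p = 0.0182). It was 1.14 (adjusted p = 0.0554) without uninjured library 1, the lowest, and had adjusted p-values of 0.0514 and 0.0522 without 4dpi inhibitor library 5 or 7. DNAJC28 had 2.69 to 5.05 TPM in uninjured and 5.23 to 8.31 TPM in uninjured inhibitor libraries, and it passed only after scaling. Of the 10 mitochondrial chaperones, 2 rose and 3 fell in uninjured inhibitor against uninjured libraries (5 rose and none fell after scaling). The shares over all genes were 7.39% and 51.1% (19.4% and 17.8% after scaling).

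HSP90AB1, the constitutive cytosolic HSP90, showed the opposite pattern to TRiC. It had 1345, 889 and 668 TPM in uninjured, 1114, 427 and 612 TPM in 4dpi control, 166, 291 and 203 TPM in uninjured inhibitor and 241, 242 and 202 TPM in 4dpi inhibitor libraries. All 6 inhibitor libraries were below the other 6. The log2 difference was -2.12 ± 0.34 (adjusted p = 0.00182) for uninjured inhibitor and -2.03 ± 0.34 (adjusted p = 0.00232) for 4dpi inhibitor against uninjured. After scaling it was -1.17 (adjusted p = 0.00718) and -1.35 (adjusted p = 0.00502), and in both comparisons it passed all 12 fits without a library on both scales. HSP90AA1, the inducible cytosolic form in mammals, was far lower, with 23.7, 35.0 and 10.3 TPM in uninjured and 9.46 to 27.8 TPM in the inhibitor libraries, which overlap, and passed in no comparison. Contigs of the near-identical cytosolic HSP90 genes could be assigned to either symbol, so their separate levels are uncertain.

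HSPA8 and HSPA4, the most abundant cytosolic genes of the HSP70 family, were lower in the inhibitor libraries on TPM, and neither passed after scaling. HSPA8, the constitutive HSP70, had 349, 311 and 171 TPM in uninjured, 324, 177 and 242 TPM in 4dpi control, 78.3, 111 and 113 TPM in uninjured inhibitor and 94.6, 118 and 100.2 TPM in 4dpi inhibitor libraries. The libraries with and without inhibitor did not overlap. Its log2 difference was -1.41 ± 0.29 (adjusted p = 0.00326) for uninjured inhibitor and -1.35 ± 0.29 (adjusted p = 0.00579) for 4dpi inhibitor against uninjured, and after scaling -0.47 (adjusted p = 0.174) and -0.67 (adjusted p = 0.0735). HSPA4 had 562, 275 and 363 TPM in uninjured and 201, 242 and 218 TPM in uninjured inhibitor libraries. Its difference of -0.80 ± 0.24 (adjusted p = 0.0145) turned to 0.15 after scaling (adjusted p = 0.569), and on TPM the adjusted p was 0.0549 without uninjured library 1 and 0.0538 without uninjured inhibitor library 5. HSPA14, which helps HSP70 at the ribosome in mammals, went the other way, with 78.6, 87.9 and 84.2 TPM in uninjured, 147, 150 and 170 TPM in uninjured inhibitor and 192, 191 and 191 TPM in 4dpi inhibitor libraries. It rose by 0.89 ± 0.21 (adjusted p = 0.00537) and 1.20 ± 0.21 (adjusted p = 0.0027), and by 1.84 and 1.87 after scaling, with all 12 fits without a library passing in each. The summed TPM of TRiC was 2.11 to 4.45 times that of HSP90AB1, HSPA8 and HSPA4 together in uninjured, 2.72 to 7.80 times in 4dpi control and 10.0 to 13.8 times in the inhibitor libraries.

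**Figure D3:**
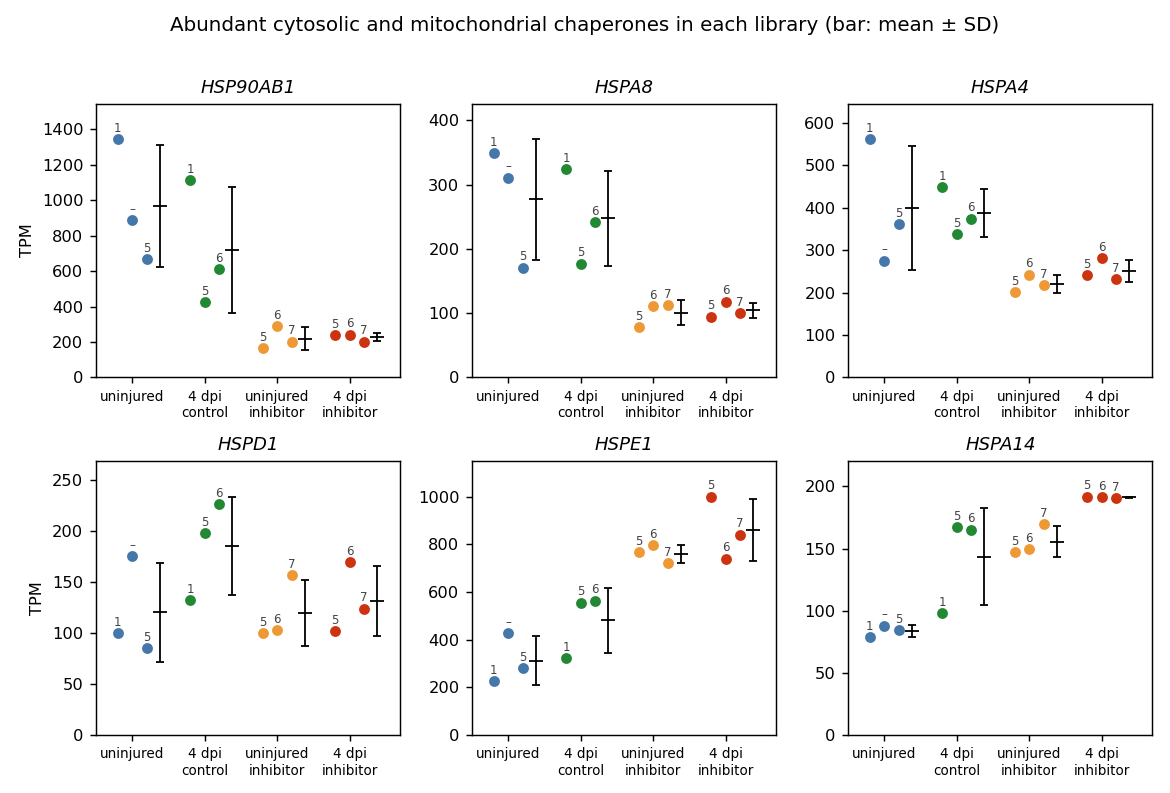
TPM (y axis, from 0) of HSP90AB1, HSPA8, HSPA4, HSPD1, HSPE1 and HSPA14 in each library of the 4 groups (x axis), with library numbers above the points, a dash for the uninjured library without a number, and the mean ± SD of 3 libraries beside each group. The inhibitor libraries are the lowest for HSP90AB1 and HSPA8 and the highest for HSPE1, and 4dpi control libraries 5 and 6 reach the inhibitor libraries for HSPA14 but not for HSPE1.

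The HSP70 symbols HSPA1A, HSPA1L and HSPA6 were among the members that varied most between libraries of the same group. HSPA1A, the main heat-inducible HSP70, had 12.2, 56.8 and 6.93 TPM in uninjured libraries 1, unnumbered and 5, 16.1, 3.68 and 64.5 TPM in 4dpi control libraries 1, 5 and 6, 0, 0.72 and 0.307 TPM in uninjured inhibitor libraries 5, 6 and 7, and 6.81, 263 and 497 TPM in 4dpi inhibitor libraries 5, 6 and 7. Uninjured inhibitor libraries were below all others, and 2 of the 3 4dpi inhibitor libraries were above all others while the third was just below the lowest uninjured library. HSPA1L and HSPA6, which are close relatives, were also highest in 4dpi inhibitor libraries 7 and 6: HSPA1L had 2.12, 92.2 and 162 TPM and HSPA6 0.561, 43.0 and 87.0 TPM in the 4dpi inhibitor libraries. HSPA1B had 6.87, 62.4 and 104 TPM there, but its highest levels were in uninjured libraries 1 (165 TPM) and unnumbered (164 TPM). The 4 symbols together had 37.8 to 254 TPM in uninjured, 33.2 to 137 TPM in 4dpi control, 10.9 to 21.5 TPM in uninjured inhibitor and 16.4, 461 and 849.8 TPM in 4dpi inhibitor libraries 5, 6 and 7. HSPA1A was 2.85 to 3.22 times HSPA1L in all 3 of the last group although the levels differed widely. Near-identical HSP70 contigs can share reads or best hits, so the split among HSPA1A, HSPA1B, HSPA1L, HSPA2 and HSPA6 is uncertain. HSPA1A, HSPA1B, HSPA1L and HSPA6 are names of best human hits, and no axolotl RefSeq gene has any of these symbols. Of all 79 members, 64 have an axolotl RefSeq gene of the same symbol. HSPE1, HSPA9, DNAJB7 and HSPB11 are also among those without one.

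HSPA1A was the one member that rose between 4dpi inhibitor and uninjured inhibitor libraries, with a log2 difference of 8.23 ± 1.48 (adjusted p = 0.0326), against 0.579% of all genes that rose and 0.0434% that fell. After scaling it was 8.21 (adjusted p = 0.0365), against 0.774% and 0.485% of all genes. Libraries did not overlap in 16 higher and 5 lower members there (29.6% and 9.51% of all genes). The size depends on the 0.1 TPM added, since 1 uninjured inhibitor library is listed at 0. The call was lost without any of 4 libraries, with adjusted p-values of 0.138 and 0.136 without uninjured inhibitor library 5 or 7 and 0.173 and 0.163 without 4dpi inhibitor library 6 or 7. It was also lost with a pseudocount of 1. HSPA1L was higher in that comparison by 5.22 (unadjusted p = 0.00195, adjusted p = 0.0875), without overlap, and DNAJB1, a J-domain partner of inducible HSP70, by 1.54 (unadjusted p = 0.00824, adjusted p = 0.13), with 4.93, 5.95 and 5.47 TPM in uninjured inhibitor and 7.72, 18.7 and 28.0 TPM in 4dpi inhibitor libraries. In uninjured inhibitor against uninjured libraries, HSPA1A fell (log2 difference -5.72 ± 1.48, adjusted p = 0.00751), also after scaling (-5.03, adjusted p = 0.0248), where the adjusted p was 0.0982 and 0.0533 without uninjured inhibitor library 5 or 7 and 0.0814 without the unnumbered library of the uninjured group. HSPA1B fell by 2.85 ± 0.89 (adjusted p = 0.0176) and DNAJB1 by 1.87 ± 0.49 (adjusted p = 0.00811), and neither passed after scaling (adjusted p = 0.105 and 0.128). Without uninjured library 1, the unnumbered one or uninjured inhibitor library 5, the adjusted p of HSPA1B was 0.0643, 0.0551 and 0.0634.

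**Figure D4:**
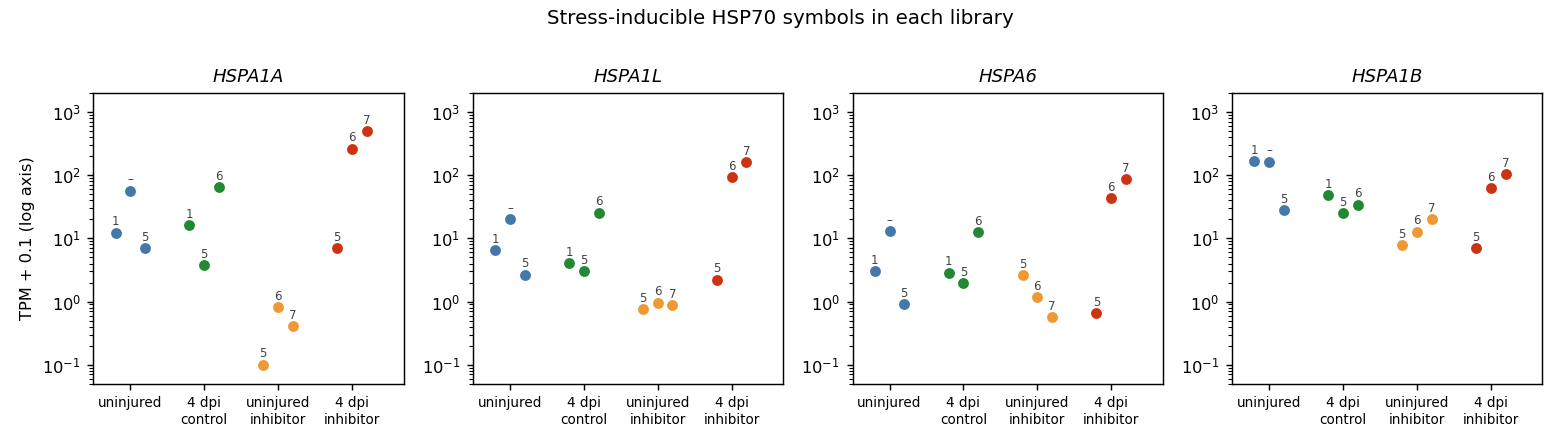
TPM + 0.1 on a log axis (y axis) of HSPA1A, HSPA1L, HSPA6 and HSPA1B in each library of the 4 groups (x axis), with library numbers above the points and a dash for the uninjured library without a number. In 4dpi inhibitor libraries 6 and 7 HSPA1A reaches 263 and 497 TPM, library 5 of that group has 6.81 TPM, and the uninjured inhibitor libraries have 0, 0.72 and 0.307 TPM.

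Heat shock genes differed in how far they followed HSPA1A. DNAJB1 was likewise lowest in the uninjured inhibitor libraries and had its highest 4dpi inhibitor levels in libraries 7 and 6, but was highest in uninjured library 1 (29.1 TPM). HSP90AA1 had 12.1, 14.6 and 27.8 TPM in those 4dpi inhibitor libraries and 15.3, 18.3 and 9.46 TPM in the uninjured inhibitor libraries. HSPH1, an HSP110 exchange factor that heat induces in mammals, had 3.40, 15.2 and 3.79 TPM in uninjured and 2.27, 4.58 and 3.56 TPM in 4dpi inhibitor libraries. BAG3, a co-chaperone induced with HSPA1A in mammals, had 34.9, 36.1 and 29.4 TPM in 4dpi inhibitor libraries 5, 6 and 7 and was highest, with 162 TPM, in the unnumbered uninjured library. That library also had the highest level of HSPH1, HSP90AA1 (35.0 TPM), HSPB1 (291 TPM) and HSPB8 (315 TPM). Of 14 members of the heat shock core (the inducible and constitutive cytosolic genes with HSPD1 and HSPE1), 2 rose and 6 fell in uninjured inhibitor against uninjured libraries, with a median log2 difference of -1.20 against -1.10 over all genes. After scaling 2 rose and 2 fell, with a median of -0.28 against -0.17. Of all genes, 7.39% rose and 51.1% fell in that comparison (19.4% and 17.8% after scaling).

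The chaperones of the ER were mostly lower with the inhibitor by about as much as the typical gene. DNAJB11 rose in both inhibitor groups against uninjured cord, and HSPA13 in the injured one only. HSPA5, the ER HSP70 also known as BiP, had 190, 534 and 50.6 TPM in uninjured, 343, 204 and 243 TPM in 4dpi control, 152, 102 and 168 TPM in uninjured inhibitor and 121, 264 and 149 TPM in 4dpi inhibitor libraries. The uninjured libraries alone spanned the range of all groups, and HSPA5 passed in no comparison. HSP90B1, the ER HSP90, had 331, 566 and 195 TPM in uninjured and 151, 146 and 158 TPM in uninjured inhibitor libraries (log2 difference -1.13 ± 0.35, adjusted p = 0.0164, and 0.0538 without the unnumbered uninjured library). DNAJB9, a BiP partner induced by ER stress, had 57.6, 141 and 39.7 TPM in uninjured and 30.2, 30.7 and 29.4 TPM in uninjured inhibitor libraries (-1.19 ± 0.36, adjusted p = 0.0156). DNAJC3, an ER J-domain protein, had 44.0, 60.7 and 31.7 against 16.0, 14.8 and 12.9 TPM (-1.59 ± 0.33, adjusted p = 0.00333). None of these passed after scaling, when the log2 differences were -0.18, -0.24 and -0.65.

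DNAJB11, the ER partner of HSPA5 named above, had 74.9, 155 and 71.2 TPM in uninjured, 133, 190 and 177 TPM in 4dpi control, 181, 143 and 165 TPM in uninjured inhibitor and 168, 214 and 181 TPM in 4dpi inhibitor libraries. It rose in uninjured inhibitor against uninjured libraries by 0.79 ± 0.28 (adjusted p = 0.0302) with 1 overlapping library on each side, and by 1.74 after scaling (adjusted p = 0.00846). On TPM the adjusted p was 0.105 without uninjured library 1 and 0.109 without uninjured library 5. HSPA13, an atypical HSP70 of microsomes, had 11.2, 7.62 and 6.62 TPM in uninjured and 10.9, 16.7 and 14.1 TPM in 4dpi control libraries. It had 8.05, 10.9 and 6.71 TPM in uninjured inhibitor and 15.2, 17.0 and 17.6 TPM in 4dpi inhibitor libraries. In 4dpi inhibitor against uninjured libraries it rose by 0.998 ± 0.29 (adjusted p = 0.0196), or 1.67 after scaling. Its adjusted p was 0.0706 without 4dpi inhibitor library 7, 0.0502 without library 5 of that group and 0.0544 without uninjured library 5. The membrane J-domain protein DNAJB14 fell in uninjured inhibitor libraries on both scales, from 37.3, 13.4 and 18.9 to 4.40, 7.99 and 2.46 TPM (-2.23 ± 0.47, adjusted p = 0.00345, scaled -1.29). The scaled adjusted p was 0.051 without uninjured library 1 and 0.0569 without uninjured inhibitor library 7. Its relative DNAJB12 fell on both scales in 4dpi inhibitor libraries, from 127, 89.95 and 88.1 to 28.4, 49.3 and 26.9 TPM (-1.58 ± 0.30, adjusted p = 0.00358, scaled -0.90), with scaled adjusted p-values of 0.069 and 0.0738 without 4dpi inhibitor library 5 or 7. Of 11 ER chaperones, 1 rose and 7 fell in uninjured inhibitor against uninjured libraries, beside 7.39% and 51.1% of all genes. After scaling 3 rose and 1 fell, beside 19.4% and 17.8% of all genes.

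**Figure D5:**
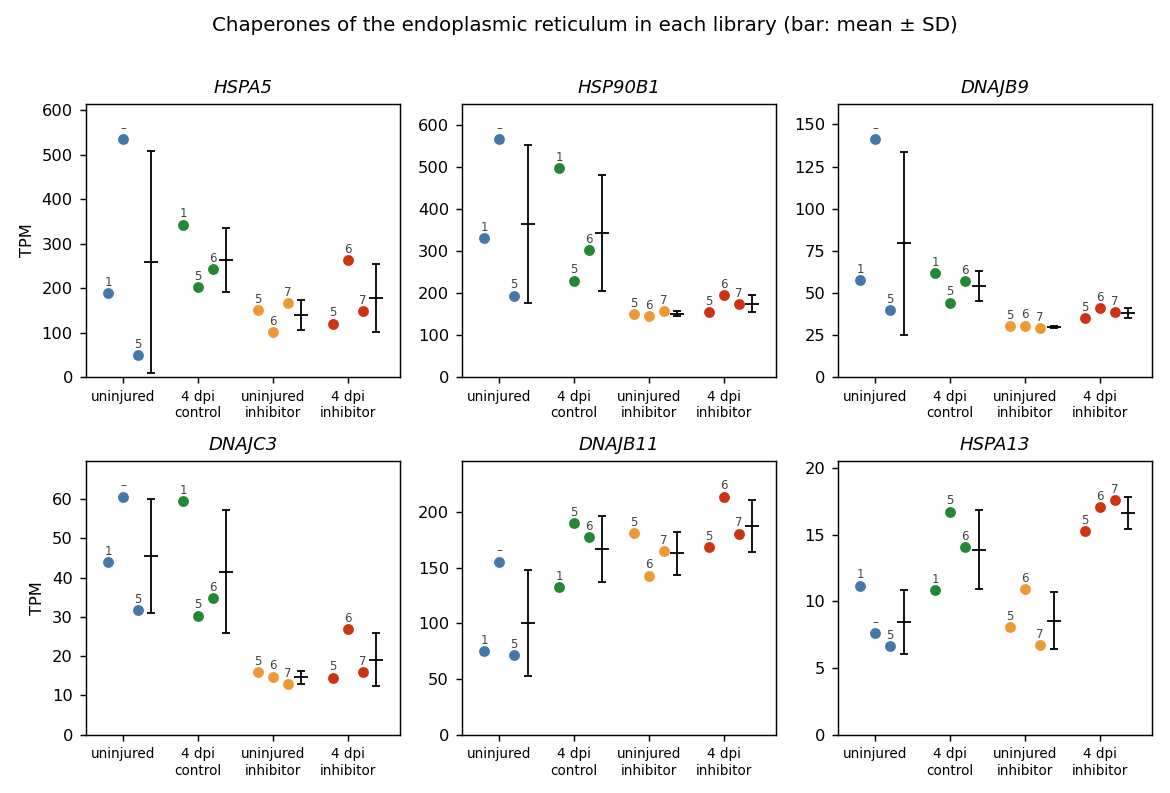
TPM (y axis, from 0) of 6 ER chaperones in each library of the 4 groups (x axis), with library numbers above the points, a dash for the uninjured library without a number, and the mean ± SD of 3 libraries beside each group. For HSPA5, HSP90B1, DNAJB9 and DNAJC3 the unnumbered uninjured library is the highest of all, with 534, 566, 141 and 60.7 TPM, whereas DNAJB11 and HSPA13 are not highest there.

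Small heat shock proteins, which hold unfolding proteins without ATP, passed on TPM in a single case, HSPB8. This protein acts with BAG3 in mammals. HSPB8 had 63.1, 315 and 186 TPM in uninjured, 144, 128 and 146 TPM in 4dpi control, 42.0, 49.3 and 55.9 TPM in uninjured inhibitor and 46.3, 66.5 and 59.2 TPM in 4dpi inhibitor libraries. It fell in uninjured inhibitor (-1.66 ± 0.43, adjusted p = 0.00765) and in 4dpi inhibitor against uninjured libraries (-1.44 ± 0.43, adjusted p = 0.0205), and after scaling the adjusted p was 0.322 in each. On TPM the 4dpi inhibitor call was lost without any of 4 libraries, with an adjusted p of up to 0.0735, without 4dpi inhibitor library 5. Without both libraries numbered 1, HSPB8 passed after scaling with adjusted p-values of 0.0028 and 0.00286. That fit left out the lowest uninjured library, with 63.1 TPM, and was added after the data were seen. HSPB1, the major small heat shock protein, ran from 53.2 to 291 TPM in uninjured and from 49.2 to 120 TPM in inhibitor libraries. HSPB7, a muscle small heat shock protein in mammals, ran from 7.43 to 34.6 TPM in uninjured and from 8.64 to 19.6 TPM in inhibitor libraries, and both overlapped in every comparison with uninjured cord. HSPB11, a subunit of the ciliary transport complex rather than a chaperone, had 35.1, 11.8 and 26.3 TPM in uninjured and 43.1, 34.3 and 34.5 TPM in uninjured inhibitor libraries and passed only after scaling (1.68, adjusted p = 0.00358).

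The J-domain proteins split widely. Among the DNAJC genes, 3 rose and 10 fell of 24 tested in uninjured inhibitor against uninjured libraries, beside 7.39% and 51.1% of all genes. After scaling 10 rose and 3 fell, beside 19.4% and 17.8% of all genes. DNAJC8 rose in both inhibitor groups, from 114, 94.97 and 128 TPM in uninjured to 210, 210 and 209 TPM in uninjured inhibitor and 233, 177 and 206 TPM in 4dpi inhibitor libraries (0.91 ± 0.21, adjusted p = 0.00481, and 0.87 ± 0.21, adjusted p = 0.00889). DNAJC5, the cysteine string protein of synaptic vesicles, had 29.9, 4.11 and 7.33 TPM in uninjured, 0.422, 2.40 and 0.384 TPM in uninjured inhibitor and 4.18, 2.98 and 3.97 TPM in 4dpi inhibitor libraries. It fell by 3.51 ± 0.78 in uninjured inhibitor against uninjured libraries (adjusted p = 0.00415, scaled -2.64, adjusted p = 0.0103). DNAJC6, the neuronal auxilin that uncoats clathrin vesicles, had 50.0, 3.48 and 10.7 TPM in uninjured and 2.88, 7.73 and 2.59 TPM in uninjured inhibitor libraries, which overlap, and did not pass. Uninjured library 1 was the highest for both genes and for the summed neuronal markers, 16510 TPM. In uninjured inhibitor against uninjured libraries the neuronal markers fell on TPM in 11 of 18 cases and rose in none, beside 51.1% and 7.39% of all genes. The median log2 difference of all genes there was -1.10. The part of neuronal RNA in the level of DNAJC5 was not tested.

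DNAJC13, a J-domain protein of endosomes, and DNAJC14, a membrane J-domain protein, also fell in uninjured inhibitor libraries on both scales. DNAJC14 went from 50.4, 25.0 and 26.4 to 7.85, 12.9 and 9.97 TPM (-1.67 ± 0.34, adjusted p = 0.00315). After scaling it was -0.73 (adjusted p = 0.0211), with an adjusted p of 0.0977 without uninjured inhibitor library 5 and 0.0645 without uninjured library 1. DNAJC13 went from 20.7, 11.9 and 12.9 to 4.94, 6.11 and 5.09 TPM (-1.44 ± 0.30, adjusted p = 0.00323), and its scaled difference of -0.50 was at the threshold (adjusted p = 0.0489), with 2 of 12 fits without a library passing. DNAJC27, a small GTPase with a J domain, rose from 32.5 to 41.0 TPM in uninjured to 52.2 to 55.4 TPM in uninjured inhibitor libraries (0.55 ± 0.20, adjusted p = 0.0339), with 5 of 12 fits without a library passing and an adjusted p of 0.0983 without uninjured inhibitor library 5. DNAJC9, a histone chaperone of dividing cells, had 127, 88.3 and 65.4 TPM in uninjured and 80.5, 64.4 and 91.0 TPM in uninjured inhibitor libraries, with overlap, and passed there only after scaling (0.73, adjusted p = 0.0455). DNAJC2 and DNAJC21, J-domain proteins of the ribosome and its assembly, had 12.7 to 25.6 and 44.7 to 62.2 TPM in uninjured and 30.7 to 34.1 and 77.4 to 84.2 TPM in 4dpi inhibitor libraries. They had 15.8 to 38.6 and 53.3 to 87.7 TPM in 4dpi control and 14.0 to 24.5 and 55.8 to 75.5 TPM in uninjured inhibitor libraries. In 4dpi inhibitor against uninjured libraries DNAJC21 rose (0.61 ± 0.23, adjusted p = 0.049), with 0.113 without 4dpi inhibitor library 7, whereas DNAJC2 passed after scaling only. DNAJC17 fell in that comparison on TPM, from 91.5, 54.6 and 41.4 to 17.9, 24.9 and 18.6 TPM.

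Among the DNAJA and DNAJB genes, DNAJA1, a farnesylated partner of HSP70, rose in uninjured inhibitor libraries from 128, 81.7 and 118 to 156, 143 and 160 TPM (0.51 ± 0.20, adjusted p = 0.0453). It passed in 4 of 12 fits without a library, with an adjusted p of 0.128 without the unnumbered uninjured library. DNAJA2, the most abundant of that family, had 257, 170 and 211 TPM in uninjured and 162, 182 and 179 TPM in uninjured inhibitor libraries, with overlap. DNAJB13, a protein of the radial spoke of motile cilia, had 54.5, 10.5 and 39.3 TPM in uninjured, 33.8, 12.5 and 20.2 TPM in 4dpi control, 11.8, 9.28 and 13.6 TPM in uninjured inhibitor and 7.97, 3.07 and 4.59 TPM in 4dpi inhibitor libraries. The lowest libraries were those with injury and inhibitor together. It fell in 4dpi inhibitor against uninjured libraries by 2.52 ± 0.57 (adjusted p = 0.0064), or by 1.85 after scaling (adjusted p = 0.0165). Without 4dpi inhibitor library 6 the scaled adjusted p was 0.0704, and it was 0.0612 and 0.0553 without uninjured library 1 or 5. Of 13 markers of motile cilia, 11 fell and 1 rose in that comparison on TPM, beside 31.2% and 9.39% of all genes. The median log2 difference of all genes there was -0.81. Their summed TPM was 309, 107 and 127 in uninjured libraries 1, unnumbered and 5. It was 135, 93.1 and 113 in 4dpi inhibitor libraries 5, 6 and 7, so the groups overlap. The part of ciliated cells in the level of DNAJB13 was not tested. DNAJB7, an intronless gene of the testis in mammals, was listed at 0 in all 6 inhibitor libraries. It had 0.836, 24.4 and 0 TPM in uninjured and 2.27, 1.60 and 1.12 TPM in 4dpi control libraries.

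Injury with the control inhibitor changed no member past the threshold, on either scale, while 0.861% of all genes rose and 0.0434% fell on TPM (0.911% and 0.0651% after scaling). At an unadjusted p under 0.05, 11 members were higher and 1 lower, against 7.38% and 2.82% of all genes. The smallest p-values were those of HSPA14, with 98.1, 167 and 165 TPM in 4dpi control libraries 1, 5 and 6 (log2 difference 0.74 ± 0.21, unadjusted p = 0.00434, adjusted p = 0.174), and CCT2, with 774, 1139 and 1033 TPM (0.60 ± 0.18, unadjusted p = 0.00522, adjusted p = 0.195). For both genes all 4dpi control libraries were above all uninjured libraries. In 6 members the 4dpi control libraries were all higher and in 1 all lower, against 7.85% and 1.88% of all genes. Library 1 lay closest to the uninjured libraries. Without both libraries numbered 1, HSPA14 (0.95, adjusted p = 0.0173), CCT2 (0.81, adjusted p = 0.034) and CCT8 (0.71, adjusted p = 0.039) rose and none fell, against 1.61% and 0.434% of all genes. Summed TPM of 16 markers of microglia and macrophages ran from 667 to 826 in uninjured and from 2092 to 2359 in 4dpi control libraries.

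Between the injured groups, 3 members fell and none rose in 4dpi inhibitor against 4dpi control libraries, against 3.19% and 0.629% of all genes. They were HSP90AB1 (-1.54 ± 0.34, adjusted p = 0.0458), HSPA8 (-1.21 ± 0.29, adjusted p = 0.0491) and DNAJB12 (-1.23 ± 0.30, adjusted p = 0.0499), whose libraries did not overlap. Over all members, the libraries of 8 were all higher and those of 28 all lower (6.97% and 49% of all genes). DNAJB12 had 114, 58.7 and 72.5 TPM in 4dpi control libraries. Each call was lost in 8 of the 12 fits without a library, with the highest adjusted p, 0.208, without 4dpi inhibitor library 7. In these 8 fits 0 to 1 genes of all 13824 tested rose and 0 fell. Without 4dpi control library 1 the adjusted p was 0.183 for HSP90AB1. After scaling no gene of the whole table passed in this comparison, and the log2 differences of HSP90AB1, HSPA8 and DNAJB12 were -0.90, -0.57 and -0.59. At an unadjusted p under 0.05, 4 members were higher and 24 lower on TPM, against 4.2% and 30% of all genes. HSPE1 had the smallest unadjusted p among the higher members (0.87, unadjusted p = 0.00585, adjusted p = 0.0633), with 740 to 1001 TPM against 323 to 563 TPM.

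Whether the inhibitor acted differently in injured and uninjured cord was asked with the interaction of injury and inhibitor. No member passed, against 0.0289% of all genes with a positive and 0.0145% with a negative interaction. At an unadjusted p under 0.05, 5 members were positive and none negative, against 6.58% and 1.59% of all genes, so the count of positive members was near the background. HSPA1A had the largest of these, 8.34 (unadjusted p = 0.00164, adjusted p = 0.587), followed by HSPA1L, 5.27 (adjusted p = 0.587), and the remaining members were HSPA1B, DNAJB1 and DNAJC5. The difference between HSPA1A being lower with inhibitor in uninjured cord and higher in 2 of 3 libraries in injured cord was not past the threshold.

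Genes that work with these chaperones were described from separate lists. Prefoldin, which hands unfolded actin and tubulin to TRiC, moved in the direction of TRiC: of 9 prefoldin subunits and TRiC cofactors, 6 rose and 1 fell in uninjured inhibitor and 6 rose and none fell in 4dpi inhibitor against uninjured libraries (8 and 1, and 8 and none, after scaling). Of all genes, 7.39% rose and 51.1% fell in the former and 9.39% and 31.2% in the latter comparison. After scaling these shares were 19.4% and 17.8%, and 16.6% and 12%. PFDN1 had 359, 359 and 459 TPM in uninjured and 944, 1059 and 792 TPM in uninjured inhibitor libraries (1.25 ± 0.21, adjusted p = 0.00187, scaled 2.19). PFDN4 rose by 1.03 and VBP1 by 0.90 in the same comparison. There, of 29 tested co-chaperones and heat shock factors, 4 rose and 17 fell on TPM, beside 7.39% and 51.1% of all genes. After scaling 11 rose and 5 fell, beside 19.4% and 17.8% of all genes. PPP5C, a phosphatase bound to HSP90, had 242, 132 and 131.5 TPM in uninjured and 31.6, 46.2 and 36.7 TPM in uninjured inhibitor libraries (-2.09, adjusted p = 0.00172, scaled -1.15). BAG2, an exchange factor of HSP70, fell from 8.50, 12.1 and 6.03 to 0.449, 1.08 and 0.307 TPM (-3.75, adjusted p = 0.00204, scaled -2.89). HSBP1, a small protein that binds heat shock factor 1, rose from 304, 322 and 289 to 816, 699.7 and 693 TPM (1.27, adjusted p = 0.00181, scaled 2.22).

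In the unfolded protein response of the ER, 2 genes rose and 12 fell of 21 in uninjured inhibitor against uninjured libraries, beside 7.39% and 51.1% of all genes. After scaling 5 rose and 2 fell, beside 19.4% and 17.8% of all genes. SEC61B, a small subunit of the translocation channel, rose from 1038, 1528 and 1532 to 3415, 2993 and 2958 TPM (1.21, adjusted p = 0.00188), and EDEM1, which directs misfolded glycoproteins to degradation, fell on both scales (-2.47, scaled -1.55). HERPUD1, an ER stress gene, had 66.4, 83.7 and 36.7 TPM in uninjured and 20.5, 20.7 and 21.0 TPM in uninjured inhibitor libraries and fell on TPM (-1.50, adjusted p = 0.00251). Of 10 genes of mitochondrial protein quality control, 1 rose and 7 fell, beside 7.39% and 51.1% of all genes. After scaling 2 rose and 1 fell, beside 19.4% and 17.8% of all genes. The falls on TPM included the subunits of protease complexes CLPX (-1.35, scaled -0.41), AFG3L2 (-1.21, scaled -0.26) and SPG7 (-1.70, scaled -0.77), of which SPG7 alone passed after scaling as well (adjusted p = 0.0406).

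The 8 members below a mean of 1 TPM were CCT6B, DNAJB8, DNAJC5B, HSPA2, HSPA4L, HSPB3 and both readthrough symbols. CCT6B, a TRiC subunit of the testis in mammals, was listed at 0 in 11 libraries and had 6.69 TPM in 4dpi inhibitor library 7. DNAJB8 was listed at 0 in all libraries but the unnumbered uninjured one, which had 5.59 TPM. HSPA2, the HSP70 of the testis in mammals, reached 2.79 TPM at most, in uninjured library 1. HSPA12A, an atypical HSP70 of the brain in mammals, was above the minimum through uninjured library 1 (28.0 TPM), since the other uninjured libraries had 0.153 and 2.98 TPM and the inhibitor libraries had 0 to 0.946 TPM.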

How the data were processed

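Total RNA of 12 spinal cord pools, 3 per group as labelled, was sequenced. The authors assembled all reads de novo, named contigs by best BLASTX hit to human proteins, aligned reads with Bowtie 0.12.1, used RSEM 1.1.6 for estimated counts, added these up by symbol (which merges paralogs with 1 best hit) and deposited TPM; their DESeq2 1.16.1 results were not used. Here limma 3.58.1 (R 4.3.3) was run on log2 of TPM plus 0.1, with all 12 libraries in 1 model of group means (residual df 8), moderated variances that follow the mean level, a minimum mean of 1 TPM and Benjamini-Hochberg adjustment, and the script was checked on simulated data. Depth is not known from TPM.

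Named members were the best-supported per comparison and direction (up to 8), the most abundant per family, a fixed list of well-known genes, those at 0 in a group, and 3 per list of other genes; DNAJC2, DNAJC28, HSPA12A, BAG3 and the shares and ratios were added after their values were seen. The members and lists were chosen with earlier results of these data known. Alternatives were another pseudocount, other filters, median-of-ratios scaling, a replicate block, only the compared groups, and leaving out libraries; the last was repeated on scaled TPM after seeing the data. No sequence or coordinate is given, because no sequence reference was at hand.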

Additional observations from a re-analysis of the deposited data

How the results depend on the processing

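The counts of members that passed moved with the scaling of TPM, with single libraries, with the libraries in the model and with the replicate block. The counts over all genes moved with these settings as well. Median-of-ratios scaling changed 11 rises and 23 falls to 25 and 6 in uninjured inhibitor against uninjured libraries, 12 and 17 to 21 and 4 in 4dpi inhibitor against uninjured libraries, and the 3 falls in 4dpi inhibitor against 4dpi control libraries to 0. It turned the direction of DNAJB2 (0.21), DNAJC10 (0.0147), DNAJC11 (0.21), DNAJC30 (0.25) and HSPA4 (0.15), which fell on TPM in uninjured inhibitor against uninjured libraries. Without both libraries numbered 1, 3 members rose in 4dpi control against uninjured libraries (1 on scaled TPM), 2 rose in 4dpi inhibitor against uninjured inhibitor libraries and 0 fell in 4dpi inhibitor against 4dpi control libraries. Over all 13824 genes, 222 rose (172 on scaled TPM), 470 rose and 3 fell in these comparisons, in the same order. In 4dpi inhibitor against 4dpi control libraries, no filter gave 0 falls, a mean of at least 5 TPM gave 1 rise and 7 falls, and only the compared groups gave 1 rise and 12 falls. Over all genes there were 114 falls of 15091, 213 rises and 1134 falls of 9750, and 236 rises and 2222 falls of 13824. Only the compared groups gave 6 rises in uninjured inhibitor and 11 falls in 4dpi inhibitor against uninjured libraries. Over all 13824 genes, 714 rose in the former and 3192 fell in the latter comparison. HSPA1A no longer passed between 4dpi inhibitor and uninjured inhibitor libraries with a pseudocount of 1 or no filter (0 rises each). Most same-numbered libraries did not deviate together. Over 11 same-numbered pairs the correlation of deviations ran from -0.31 to 0.51, with 3 above 0.1. The highest, 0.51, was that of uninjured library 1 and 4dpi control library 1. With the replicate number as a block, 3 members rose in 4dpi control against uninjured, 6 in uninjured inhibitor against uninjured, 6 in 4dpi inhibitor against uninjured, and 8 rose and 1 fell in 4dpi inhibitor against uninjured inhibitor libraries. Over all 13824 genes, 372, 655 and 921 rose in the first 3 of these, and 1791 rose and 438 fell in the last. The unnumbered uninjured library was alone in its block, so the block setting in effect left it out of the group comparisons. Number 1 occurred only in groups without the miR-200 inhibitor and number 7 only in groups with it. The block is therefore partly tied to the inhibitor, and uninjured and uninjured inhibitor libraries shared number 5 alone. Leaving out 1 library at a time gave 6 to 12 rises (18 to 27 on scaled TPM) and 15 to 24 falls (scaled 3 to 9) in uninjured inhibitor against uninjured libraries, with the fewest falls without uninjured inhibitor library 5, and 5 to 16 rises (scaled 12 to 23) and 7 to 18 falls (scaled 2 to 5) in 4dpi inhibitor against uninjured libraries, with the fewest rises without 4dpi inhibitor library 7 and the fewest falls without library 5 of that group. It gave 0 to 2 rises (scaled 0 to 1) in 4dpi control against uninjured libraries, 0 to 1 rises and 0 to 11 falls in 4dpi inhibitor against 4dpi control libraries (the most without uninjured library 1), and 0 to 3 rises (scaled 0 to 2) and 0 falls (scaled 0 to 1) in 4dpi inhibitor against uninjured inhibitor libraries. Over all genes these fits on TPM gave 698 to 1104 rises and 5009 to 7837 falls in uninjured inhibitor against uninjured libraries. In 4dpi inhibitor against uninjured libraries they gave 815 to 1390 rises and 2065 to 5161 falls. They gave 75 to 259 rises in 4dpi control against uninjured libraries. Against 4dpi control libraries, 4dpi inhibitor had 0 to 321 rises and 0 to 2471 falls. Against uninjured inhibitor libraries it had 3 to 990 rises and 0 to 95 falls. The cause of these shifts was not tested. Depth is unknown, so low members are limited by an error that was not measured.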
